A study of Mus musculus with 7 samples.

Results

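The cytosolic carboxypeptidases are a family of 6 mouse genes, and all 6 were found by gene symbol among the 54532 genes of the deposited expression table: Agbl5, Agtpbp1, Agbl1, Agbl2, Agbl3 and Agbl4. They encode the proteins CCP5, CCP1, CCP4, CCP2, CCP3 and CCP6, in that order. Their transcripts were measured by RNA sequencing in 7 mouse libraries of 3 Agbl5 genotypes. Of these, 2 were wildtype, 2 heterozygous and 3 knockout, and the 4 wildtype and heterozygous libraries together are called the controls below. The genotype is the only difference between groups that the labels give. They do not state the age of the mice, the strain, how the Agbl5 allele was made, or whether the replicates were separate animals. A p-value here sets the difference between groups against the spread between libraries within groups. Y-linked transcripts, given below, differed within the wildtype and within the knockout group, so neither of these groups came from a single mouse. Whether knockout 1 and 2, or the 2 heterozygous libraries, were separate animals is not known, so part of the spread may be technical.

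Tubulin, the building block of microtubules, carries side chains of glutamate that are added after the protein is made. Glutamylases of the TTLL family start and lengthen these chains, and cytosolic carboxypeptidases take them off again. CCP5 removes the glutamate at the branch point of a chain, while CCP1, CCP4 and CCP6 shorten long chains, and CCP2 and CCP3 are also reported to remove acidic residues. In the retina the chains sit mainly on the axoneme and connecting cilium of photoreceptors. Mice without functional Agtpbp1 (the Purkinje cell degeneration mutant) lose cerebellar Purkinje cells and photoreceptors, and mutations of human AGBL5 cause retinitis pigmentosa.

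The tissue is labelled eyeball, and the extraction protocol speaks of retina. Cone photoreceptor markers, 8 genes, summed to between 609.5 and 759 FPKM in every library. FPKM is the number of fragments per kilobase of exon, here scaled by 1 factor per library (see the processing below), so levels can be set beside each other between genes. Recovered reads ran from 12244707 to 14339701 per library. Lens markers, 12 genes, were high in heterozygous 1 (3686 FPKM summed) and knockout 1 (6503) against 5.97 to 44.2 in the other 5 libraries. Y-linked transcripts were at 0 in wildtype 2 and knockout 3 and between 51.7 and 63.1 FPKM summed elsewhere, so the wildtype and the knockout group each held libraries of both sexes.

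The members differ widely in size and place in the genome (GRCm38, GENCODE M21). Agbl5 lies on chromosome 5, 30888694 to 30906965, plus strand, with 16 merged exons over 7053 bases. Of those exon bases, 677 (9.60%) are also exon of Ost4 on the minus strand, and the library kit did not mark the strand. Agtpbp1 lies on chromosome 13, 59445742 to 59585227, minus strand, with 35 merged exons over 21824 bases that no other gene's exons overlap. Agbl3 lies on chromosome 6, 34780432 to 34859459, plus strand, with 19 merged exons over 11206 bases. Agbl4 (chromosome 4, 110397661 to 111664324) and Agbl1 (chromosome 7, 76229887 to 77124698) are the longest loci, and Agbl2 lies on chromosome 2, 90782727 to 90834437; these 3 are on the plus strand. No run of 50 bases in the transcripts of 1 member occurred in another member, so reads of that length could not be exchanged within the family.

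Stretches before RefSeq starts of Agtpbp1 and Agbl3 are shown because these are the tested members besides the targeted gene. The sequences are RefSeq's (GRCm38.p6), kept to bases outside any annotated exon, and run 5′ to 3′ on the gene's own strand. The Agtpbp1 stretch is chr13:59557348-59557552 (minus strand, 205 bases); it belongs to 1 of 3 RefSeq starts, the one with the longest stretch outside exons, and lies inside the GENCODE locus given above, not at its outer end. The Agbl3 stretch is chr6:34780182-34780431 (plus strand, 250 bases). Capitals mark GTTGCC or its reverse complement, the core of the X-box that regulatory factor X proteins bind at many ciliary genes.
Agtpbp1: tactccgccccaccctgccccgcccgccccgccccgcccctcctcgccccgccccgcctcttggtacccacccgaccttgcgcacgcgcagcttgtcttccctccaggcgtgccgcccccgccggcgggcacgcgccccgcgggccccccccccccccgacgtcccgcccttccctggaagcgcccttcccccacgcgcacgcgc
Agbl3: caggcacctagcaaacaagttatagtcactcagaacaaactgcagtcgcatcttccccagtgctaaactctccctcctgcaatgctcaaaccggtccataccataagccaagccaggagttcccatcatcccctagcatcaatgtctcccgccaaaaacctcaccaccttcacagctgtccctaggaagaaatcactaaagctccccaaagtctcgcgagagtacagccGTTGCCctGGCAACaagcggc

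Motifs were searched on both strands, and a match describes the letters, not a bound site. The Agbl3 stretch held 2 such matches, which together formed 1 full X-box (the core, its reverse complement and the bases between them); the X-box occurred in 80 of 32851 RefSeq promoters over the same 250 bases (0.244%) and the core alone in 10.4%. The Agtpbp1 stretch held no match to the core, 8 matches to the Sp1 motif (GGGCGG, overlapping matches counted) and 29 CpG dinucleotides in a GC content of 81.5%. At least 8 Sp1 matches occurred in 18 of the 32851 promoters over 205 bases (0.0548%), and at least 1 in 25.6%. Neither stretch held a match to TTCNNNGAA (STAT factors), TAATCC (CRX) or TGACGTCA (CRE), which occurred in 5.91%, 5.32% and 0.877% of promoters over 205 bases and in 7.02%, 6.25% and 1.55% over 250 bases.

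**Figure D1:**
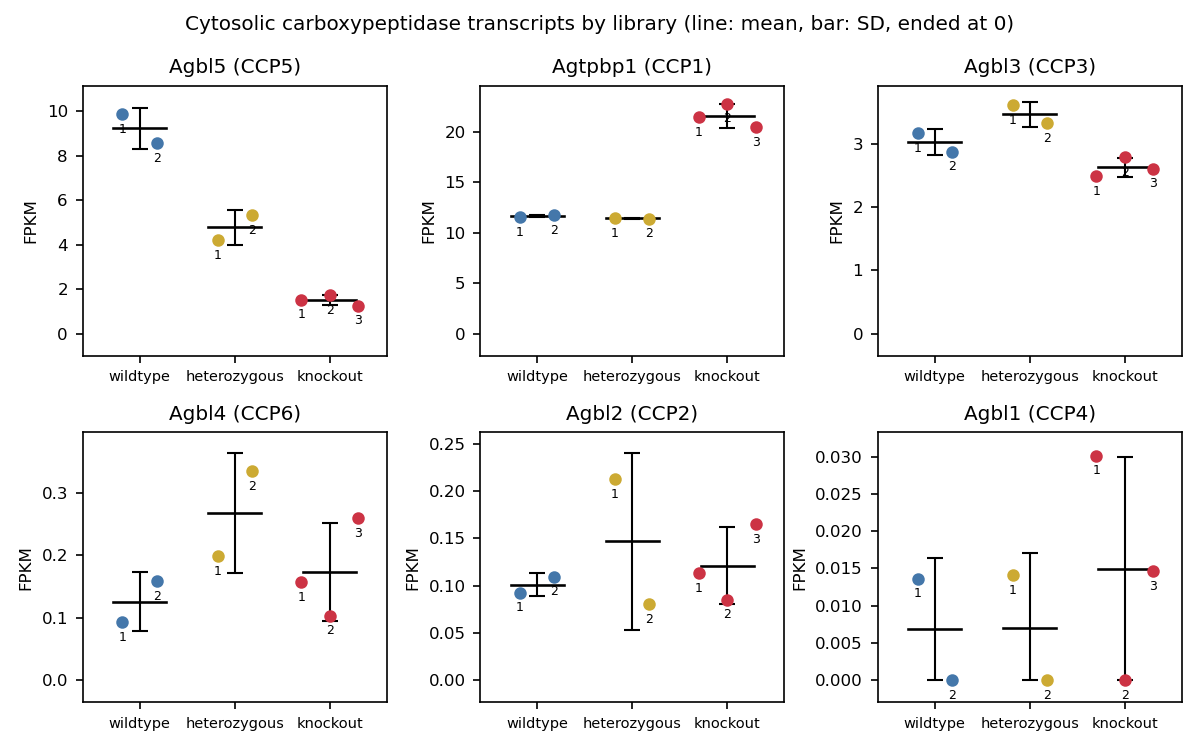
FPKM of each of the 6 members (y axes, each with its own scale) in the wildtype, heterozygous and knockout libraries (x axis), with 1 numbered point per library, the group mean as a line and the SD as a bar that ends at 0. Agbl5 steps down from wildtype (8.57 and 9.89 FPKM) to knockout (1.26 to 1.73), Agtpbp1 stands at 11.4 to 11.8 in the controls and 20.4 to 22.8 in the knockout, and the knockout points of Agbl4, Agbl2 and Agbl1 overlap those of both control genotypes.

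The 6 transcripts stood at very different levels. In wildtype libraries Agtpbp1 was the most abundant member at 11.7 ± 0.144 FPKM (SD, n = 2), followed by Agbl5 at 9.23 ± 0.935 and Agbl3 at 3.03 ± 0.206. The wildtype values of Agtpbp1 and Agbl5, neighbours in this order, did not overlap, and neither did those of Agbl5 and Agbl3. Agbl4 (0.126 ± 0.0469 FPKM) and Agbl2 (0.101 ± 0.0121) overlapped each other, and Agbl1 was last. Among all genes above 0 in any library, ranked by mean FPKM over the 7 libraries, Agtpbp1 stood at percentile 90.1, Agbl5 at 71.6, Agbl3 at 66.0, Agbl4 at 33.3, Agbl2 at 28.1 and Agbl1 at 4.44. Only Agtpbp1, Agbl5 and Agbl3 reached the mean of 1 FPKM that the test required, so 3 of the 6 members were tested and 3 are described by their reads.

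Knockout was compared with wildtype, with heterozygous and with all controls to ask how transcripts differ when Agbl5 is lost, and heterozygous with wildtype to ask the same of a single lost copy. In each comparison log2(FPKM + 1) was tested with limma over 15472 genes, with p-values adjusted by the Benjamini-Hochberg method over all of them and 0.05 as the threshold. Log2 changes below are on this scale, which understates the change of low genes, unless they come from another pseudocount, the TPM scale or voom. Those settings have log2 scales of their own, also where a range over settings is given. The 3 comparisons of the knockout share its 3 libraries and are not independent of each other.

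Agbl5, the targeted gene and the enzyme that removes branch-point glutamates, was lowest in the knockout and intermediate in the heterozygous libraries. It stood at 9.89 FPKM (1020 reads) in wildtype 1 and 8.57 FPKM (911 reads) in wildtype 2. Heterozygous 1 had 4.21 FPKM (419 reads) and heterozygous 2 had 5.34 FPKM (492 reads). Knockout 1, 2 and 3 had 1.53, 1.73 and 1.26 FPKM (143, 172 and 122 reads). All 3 genotypes were thus apart without overlap, and reads of Agbl5 remained in every knockout library. The heterozygous mean of 4.78 ± 0.805 FPKM (SD, n = 2) was 51.8% of the wildtype mean, and the knockout mean of 1.51 ± 0.233 (n = 3) was 16.4% of it and 31.6% of the heterozygous mean.

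Agbl5 fell in the knockout by 2.03 ± 0.13 on the log2 scale against wildtype (SE, adjusted p = 0.00406 by limma, 95% interval -2.34 to -1.71), lower in 3 of 3 knockout libraries, and ranked 4 by p among all genes. Against heterozygous it fell by 1.20 ± 0.13 (limma, adjusted p = 0.0239, rank 35), and against all controls by 1.61 ± 0.25 (adjusted p = 0.0429, rank 90). Heterozygous against wildtype, the difference was -0.83 ± 0.14 (95% interval -1.17 to -0.48), which did not pass over all genes (adjusted p = 0.974, unadjusted p = 0.000847 by limma, rank 11). In that comparison limma called 0 of 15472 genes (0%), with 619 genes (4%) at an unadjusted p under 0.05, and voom on the recovered reads called 0 as well. The deposited values hold no exon-level reads, so which exons the remaining knockout reads come from was not analysed here. Ost4, the gene that shares exon bases with Agbl5, stood at 15.4 and 10.4 FPKM in wildtype, 10.3 and 15.5 in heterozygous and 16.9, 15.8 and 12.4 in knockout libraries, so its values overlapped between genotypes; its part in the Agbl5 reads was not tested.

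The Agbl5 calls rested on few libraries. Against wildtype the call was lost without wildtype 1 (-1.94, adjusted p = 0.0768) or wildtype 2 (-2.12, 0.0728) and without both lens-rich libraries (-2.04, 0.0518), while the size of the change stayed close to -2.03. Against heterozygous it was lost when any 1 of the 7 libraries was left out, whichever it was (-1.34 to -1.06, adjusted p of 0.0701 to 0.0944) or both lens-rich ones were (-1.35, 0.221), and against all controls when any but heterozygous 1 was left out (-1.70 to -1.45, adjusted p of 0.0744 to 0.174; without heterozygous 1, -1.80, 0.0198; without both lens-rich libraries, -1.81, 0.0924).

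Agtpbp1 encodes CCP1, which trims long glutamate chains, and it was the member that rose in the knockout. It stood at 11.6 FPKM (3692 reads) in wildtype 1 and 11.8 (3874 reads) in wildtype 2. The heterozygous libraries both had 11.4 FPKM (3524 and 3253 reads). Knockout 1, 2 and 3 had 21.5, 22.8 and 20.4 FPKM (6197, 7028 and 6103 reads). The 4 controls lay within 0.351 FPKM of each other, and every knockout library was above every control by at least 8.68 FPKM. The knockout mean of 21.6 ± 1.19 FPKM (SD, n = 3) was 1.85 times the wildtype mean, 1.89 times the heterozygous mean and 1.87 times the mean of all controls (11.5 ± 0.163, n = 4).

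By limma, Agtpbp1 rose by 0.83 ± 0.07 on the log2 scale against wildtype (SE, 95% interval 0.68 to 0.99, adjusted p = 0.00624, rank 17 of 15472), higher in 3 of 3 knockout libraries. Against heterozygous the rise was 0.86 ± 0.07 (adjusted p = 0.00716, rank 12), and against all controls 0.85 ± 0.05 (95% interval 0.73 to 0.97, adjusted p = 0.000445, rank 11). Heterozygous against wildtype, the difference was -0.03 ± 0.07 (95% interval -0.20 to 0.14, adjusted p = 0.987 by limma). Agbl5 was lower in both heterozygous libraries than in both wildtype libraries, whereas the Agtpbp1 values of these 2 genotypes differed by at most 0.351 FPKM. The difference between the Agtpbp1 step from heterozygous to knockout and its step from wildtype to heterozygous was 0.89 ± 0.12 on the log2 scale (95% interval 0.60 to 1.18, unadjusted p = 0.000204 by limma). That contrast was chosen after the values were seen and did not pass over all genes (adjusted p = 0.175, rank 18), where limma called 0 of 15472 genes (0%) and 1209 (7.81%) had an unadjusted p under 0.05. For Agbl5 the same contrast gave -0.37 ± 0.24 (adjusted p = 0.706).

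Against all controls, Agtpbp1 passed in each of the 18 alternative settings, with changes of 0.76 (TPM scale) to 0.90 (voom). Against wildtype the call was lost without wildtype 1 (0.82, adjusted p = 0.113), wildtype 2 (0.84, 0.0997) or knockout 1 (0.84, 0.05002, just over the threshold) and on the TPM scale (0.71, 0.102), and against heterozygous without heterozygous 1 (0.86, 0.0626) and on the TPM scale (0.82, 0.0539). Without both lens-rich libraries it was lost against wildtype (0.84, 0.104) and heterozygous (0.86, 0.190) and held against all controls (0.85, 0.0187). On the TPM scale every library sums to 1 total, and the median change of all genes, knockout against wildtype, moved from -0.00343 to -0.16.

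Agbl3 encodes CCP3 and showed the smallest differences of the 3 tested members in the knockout comparisons. It stood at 3.17 FPKM (520 reads) and 2.88 (487 reads) in wildtype 1 and 2. The heterozygous libraries had 3.61 (572 reads) and 3.33 FPKM (487 reads), the highest values of the 7. Knockout 1, 2 and 3 had 2.50, 2.80 and 2.61 FPKM (370, 442 and 400 reads), all below every control. The knockout mean of 2.63 ± 0.151 FPKM was 87.0% of the wildtype and 75.9% of the heterozygous mean. The differences on the log2 scale were -0.15 ± 0.09 against wildtype (adjusted p = 0.787 by limma), -0.30 ± 0.09 against heterozygous (adjusted p = 0.321, unadjusted 0.0149) and -0.22 ± 0.08 against all controls (adjusted p = 0.353, unadjusted 0.0281), and none passed. Heterozygous against wildtype it was 0.15 ± 0.10 (95% interval -0.09 to 0.39, adjusted p = 0.974).

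**Figure D2:**
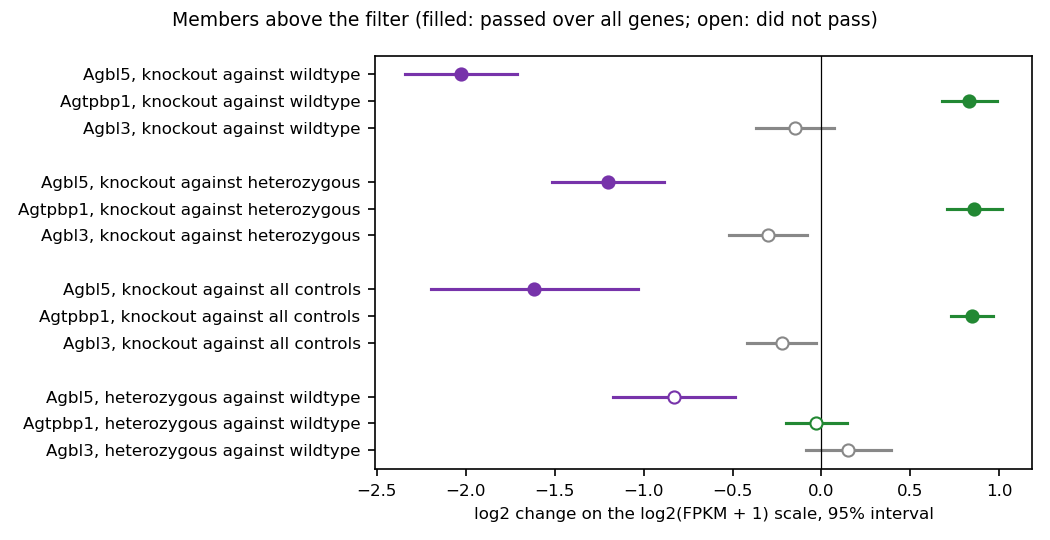
Log2 change of the 3 tested members on the log2(FPKM + 1) scale (x axis) with its 95% interval (line) in 4 comparisons (y axis); filled points passed the test over all genes and open points did not. Agbl5 lies at -2.03, -1.20 and -1.61 and Agtpbp1 at 0.83, 0.86 and 0.85 in the knockout comparisons, all filled, while the heterozygous against wildtype points are all open.

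Counted together, 1 tested member rose (Agtpbp1) and 1 fell (Agbl5) in each of the 3 knockout comparisons, and 1 did not pass (Agbl3). Over all genes tested, 0.323% were called against wildtype (0.265% higher, 0.0582% lower), 0.317% against heterozygous (0.271% higher, 0.0452% lower) and 0.614% against all controls (0.465% higher, 0.149% lower). One of these members is the targeted gene, whose low values check the labels. Groups without overlap say little in themselves: all 3 tested members had them in all 4 comparisons, as did 28.2% of all tested genes against wildtype, 29.8% against heterozygous, 13% against all controls and 30% heterozygous against wildtype.

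The other members were below the filter of the test and had few reads. Agbl4, whose product CCP6 trims long chains, had 13 and 23 reads in wildtype 1 and 2, 27 and 42 in heterozygous 1 and 2, and 20, 14 and 34 in knockout 1, 2 and 3, or 0.0926 to 0.335 FPKM. Its highest value was in heterozygous 2 and its lowest in wildtype 1, both heterozygous values were above both wildtype values, and the knockout values lay across the range of the controls. Agbl2 (CCP2) had 9 and 11 reads in wildtype, 20 and 7 in heterozygous and 10, 8 and 15 in knockout libraries, or 0.0806 to 0.213 FPKM. Both the highest and the lowest Agbl2 value belonged to heterozygous libraries.

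Agbl1 (CCP4) had 0 to 2 reads per library and 5 in all, below the 3 reads in a library that a count of 0 allows (0.0397 to 0.0458 FPKM). No fold change is given for it, and a difference between genotypes was not detectable at this depth. In Agbl1, moreover, 20.1% of the exon bases are also exon of Gm45210 on the other strand. With no filter on low values Agbl4 differed between knockout and wildtype by 0.06 ± 0.08 on the log2 scale (adjusted p = 0.926 by limma, 33081 genes tested) and Agbl2 by 0.03 ± 0.07 (adjusted p = 0.973). Heterozygous against wildtype, Agbl4 differed by 0.17 ± 0.09 (adjusted p = 0.966 by limma) and Agbl2 by 0.06 ± 0.07 (adjusted p = 0.982). At such low levels this scale understates the change.

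Per kilobase of merged exons, the summed level of the family was 24.2 ± 0.947 FPKM (SD) in the 2 wildtype libraries. It was 20.1 ± 0.588 FPKM in the 2 heterozygous and 26.0 ± 1.40 FPKM in the 3 knockout libraries. The heterozygous sums (19.7 and 20.5) were below both wildtype sums (23.5 and 24.8), while the lowest knockout sum (24.8, in knockout 3) was just below the highest wildtype sum (24.8, in wildtype 1) and the highest was 27.5. Without Agtpbp1 the sum went from 12.5 ± 1.09 through 8.67 ± 0.597 to 4.45 ± 0.226 FPKM, with no overlap between genotypes. The knockout sum was 1.08 times the wildtype sum on this scale and 1.14 times with lengths of 1 transcript per gene (that with the longest coding sequence). On the TPM scale it was 0.965 times, so its direction depended on the scale. A single gene outside the family, Gm23935, held 17.2, 7.04 and 14.7% of the FPKM total in knockout 1, 2 and 3. In wildtype 1 and 2 it held 5.45 and 2.16%, and in heterozygous 1 and 2 it held 5.95 and 11.3%. Its part in the TPM ratio was not tested.

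The make-up of the sum differed more than its size. Agtpbp1 made up 48.4 ± 2.49% of the summed level in wildtype, 56.9 ± 1.71% in heterozygous and 82.9 ± 0.317% in knockout libraries. Agbl5 made up 38.1 ± 2.38%, 23.7 ± 3.31% and 5.78 ± 0.602%, and in the knockout it stood below Agbl3 (10.1%). The ratio of Agtpbp1 to Agbl5 was 1.27 ± 0.145 in wildtype, 2.43 ± 0.411 in heterozygous and 14.5 ± 1.53 in knockout libraries, with no overlap between genotypes. The order Agtpbp1, Agbl5, Agbl3 in wildtype was the same with both kinds of length, where the wildtype ratio was 1.27 or 1.54. These shares are of transcripts, and enzyme amounts were not measured.

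**Figure D3:**
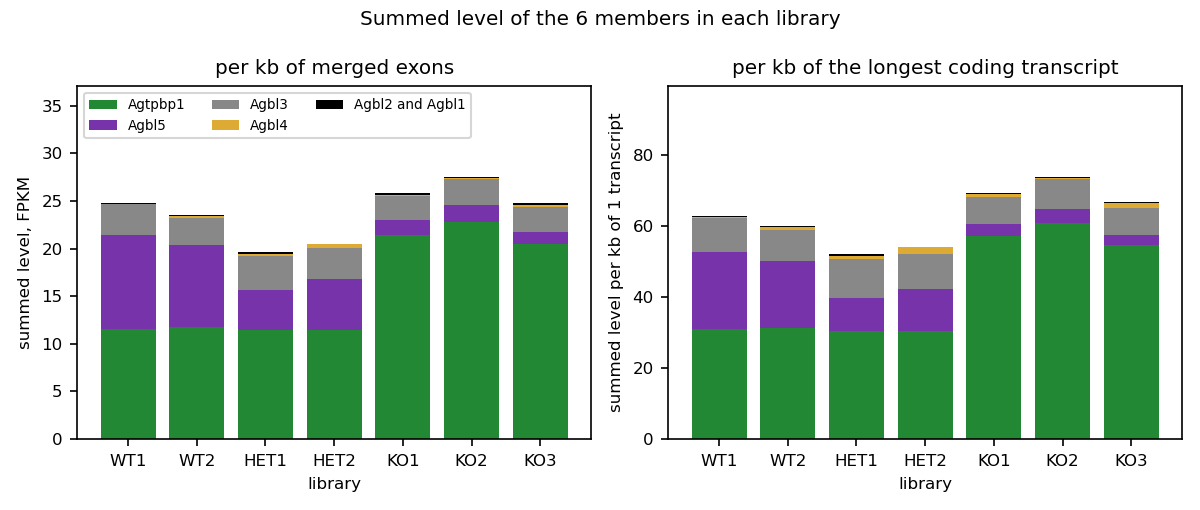
Summed level of the 6 members in each library (x axis: WT wildtype, HET heterozygous, KO knockout), stacked by gene, in FPKM per kilobase of merged exons (left y axis) and per kilobase of the transcript with the longest coding sequence (right y axis). The Agtpbp1 part fills about as much of the left knockout bars (20.4 to 22.8 FPKM) as all members together fill of the control bars (19.7 to 24.8), and the Agbl5 part shrinks from wildtype to knockout.

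Genes whose levels followed the 2 changed members most closely over the 7 libraries were found among 12320 protein-coding genes tested, by Pearson's r of log2(FPKM + 1). The libraries fall by genotype, so r mostly measures how alike the 3 genotype means lie, and it is given as a description. Agtpbp1 was most like Stat3, which encodes a cytokine-activated transcription factor, with r = 0.999. Stat3 stood at 7.58 ± 0.0940 FPKM in wildtype, 7.35 ± 0.0375 in heterozygous and 18.4 ± 1.43 in knockout libraries. Next came Klhl29, Cerkl (a gene linked to retinal degeneration in people), Sec22c (a vesicle transport protein) and Jak3 (a cytokine receptor kinase), each with r = 0.995 when rounded. Cerkl, for one, had 7.10 ± 0.0186, 7.12 ± 0.201 and 12.5 ± 0.221 FPKM in the 3 genotypes. The most opposite genes were Rabgef1 (r = -0.993), Msh5 (-0.989) and Hist2h2be (-0.986). Rabgef1 stood at 102 ± 0.259, 108 ± 1.86 and 70.1 ± 1.48 FPKM.

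Agbl5 was most like Elavl4, a neuronal RNA-binding protein gene (r = 0.993), which stood at 5.73 ± 0.0268 FPKM in wildtype, 5.06 ± 0.0890 in heterozygous and 4.11 ± 0.170 in knockout libraries. Ptdss2 (0.986), Cep83 (0.976), Mturn (0.975) and Ero1l (0.973) followed. Their smallest adjusted p by limma over the 4 comparisons was 0.133, for Elavl4 against all controls. The most opposite were A2m (-0.986), Serpina3n (-0.984) and Lman1 (-0.976). A2m and Serpina3n, both protease inhibitor genes, rose against wildtype: A2m from 1.07 ± 0.0921 to 6.69 ± 0.962 FPKM (adjusted p = 0.00512 by limma) and Serpina3n from 2.23 ± 0.713 to 18.1 ± 2.77 (adjusted p = 0.00406). An r over 0.95 was reached by 13 genes with Agbl5 and 68 with Agtpbp1. The closest 5 shared 2 genes (Agbl5) and 1 gene (Agtpbp1) with those found without the 2 lens-rich libraries.

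Markers of reactive glia and of microglia moved with the knockout too. The 9 reactive glia genes, among them Stat3, A2m and Serpina3n, summed to 56.2 and 58.5 FPKM in wildtype 1 and 2. Their sums were 108 and 60.5 in heterozygous 1 and 2, and 235, 194 and 169 in knockout 1, 2 and 3. Heterozygous 1 and knockout 1, the highest of their genotypes, are the lens-rich libraries, and the part of lens in these sums was not tested. None of the 9 genes was at 0 in all libraries, and 7 of 9 were called against all controls. The 10 microglia and macrophage genes, in the same order of libraries, summed to 25.7 and 24.2, 23.0 and 27.2, and 50.7, 55.6 and 52.2 FPKM. Of these genes 5 were called of 8 tested. Over all genes tested, 0.614% were called against all controls. Both lists were chosen with earlier results of these data known, so their counts are a description and not a test. On a separate list of 6 Mueller glia markers, all 6 were tested and 0 were called. Their part in the Agtpbp1 and Agbl5 values was not tested, and in whole tissue more cells of a type and more RNA per cell cannot be told apart.

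The genes around the family in the glutamylation pathway were counted from 9 lists with 67 genes, of which 65 were found by symbol and 48 were tested. None of the 48 was called by limma in any of the 4 comparisons. An unadjusted p under 0.05 by limma was reached by 10 of 48 against wildtype, a larger share than the 7.5% of all genes. Against heterozygous it was 6 of 48, near the 12% of all genes, and against all controls 10 of 48, a larger share than 12.2%. Heterozygous against wildtype it was 0 of 48 (4% of all genes). Whether the lists differ from all genes as sets was not tested. By voom on recovered reads 47 were tested and 1 was called, Tubb2b, against all controls. The median change of the 48 was 0.01 on the log2 scale against wildtype, where that of all genes was -0.00343, and 0.00240 against all controls, where that of all genes was 0.00274.

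Of the glutamylases, 9 TTLL genes, 6 were tested and 0 called. Against all controls 2 of the 6 were above 0, as were 50.8% of all tested genes, and their median was -0.06. Ttll5, which encodes a glutamylase linked to cone and cone-rod dystrophy in people, had the smallest p of this list. It stood at 3.39 and 3.49 FPKM in wildtype, 2.93 and 3.31 in heterozygous and 3.94, 4.49 and 4.47 in knockout libraries, a difference of 0.31 ± 0.08 against all controls that did not pass (adjusted p = 0.201 by limma). Every knockout value of Ttll5 was above every control value, but knockout and controls were apart without overlap in 13% of all tested genes. Ttll1, the catalytic subunit of the glutamylase complex, stood at 16.4 ± 0.496 FPKM in wildtype and 15.3 ± 0.400 in knockout libraries (-0.09 ± 0.06, adjusted p = 0.811).

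The 7 subunits and partners of the glutamylases were all tested, with a median of -0.10 against all controls and the smallest p for Cfap298 (0.42 ± 0.13, adjusted p = 0.293). The only tested glycylase, Ttll3, whose enzyme adds glycine to the tubulin tails that also take glutamate, stood at 12.1 FPKM in wildtype, 11.7 in heterozygous and 9.65 in knockout libraries (-0.27 ± 0.07 against all controls, adjusted p = 0.222 by limma). The genes of detyrosination and tyrosination, 4 tested, had a median of 0.16 and the smallest p for Vash1, a tubulin carboxypeptidase that removes the last tyrosine. Vash1 stood at 12.7, 13.1 and 17.3 FPKM in the 3 genotypes (0.39 ± 0.10, adjusted p = 0.201).

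Tubulins themselves, the substrate, were 12 tested genes with a median of 0.11 against all controls and 10 of 12 above 0, beside 50.8% of all tested genes. Tubb2b, a beta tubulin of neurons, had the smallest p, with 6.05 and 5.38 FPKM in wildtype, 6.54 and 6.08 in heterozygous and 9.29, 10.6 and 8.19 in knockout libraries. All knockout values of Tubb2b were above all control values, where 13% of all tested genes had knockout and controls apart. The difference of 0.56 ± 0.09 against all controls did not pass by limma (adjusted p = 0.0600) and passed by voom on recovered reads (0.64 ± 0.12, adjusted p = 0.0261). Tubulin genes resemble each other closely, and how reads were shared among them is not stated.

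The remaining lists held 5 tested genes for other glutamylated proteins (smallest p for Mad2l1, -0.27 ± 0.09, adjusted p = 0.302), 3 for acetylation, 3 for the severing enzymes that read glutamate chains, and 7 other metallocarboxypeptidases of the same superfamily. Their medians against all controls were -0.02, 0.09, -0.02 and -0.02. Against this range, the Agtpbp1 rise of 0.85 was larger than the change of each of the 48 tested pathway genes, whose values ran from -0.27 to 0.56 against all controls.

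**Figure D4:**
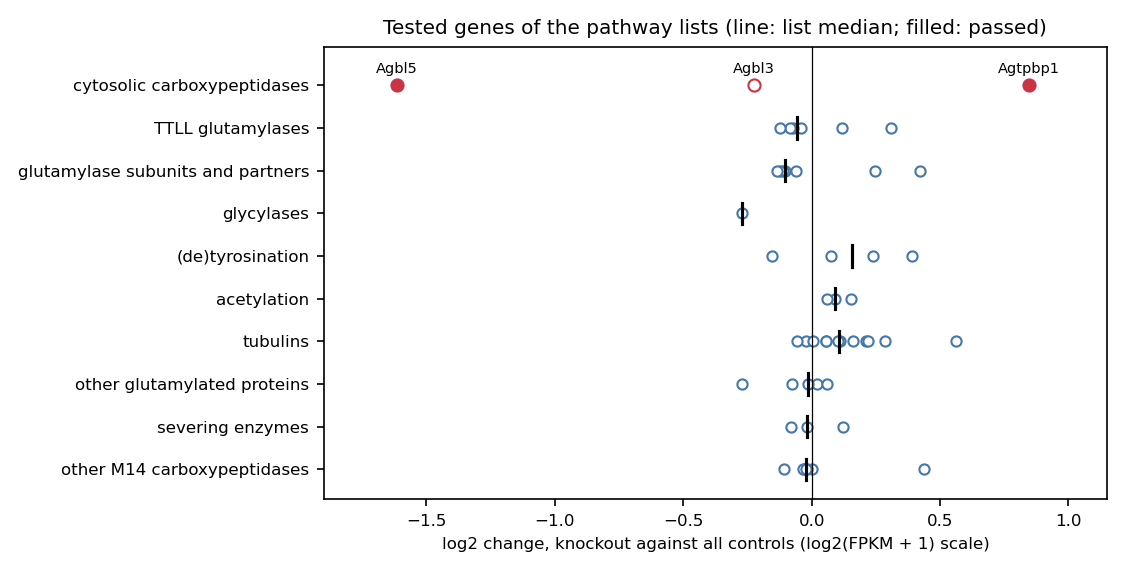
Log2 change, knockout against all controls, on the log2(FPKM + 1) scale (x axis) of each tested gene (point) in the carboxypeptidase family and the 9 pathway lists (y axis), with the list median as a bar; filled points passed the test. Agbl5 (-1.61) and Agtpbp1 (0.85) lie outside the range of the pathway genes (-0.27 to 0.56), all of which are open.

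**Figure D5:**
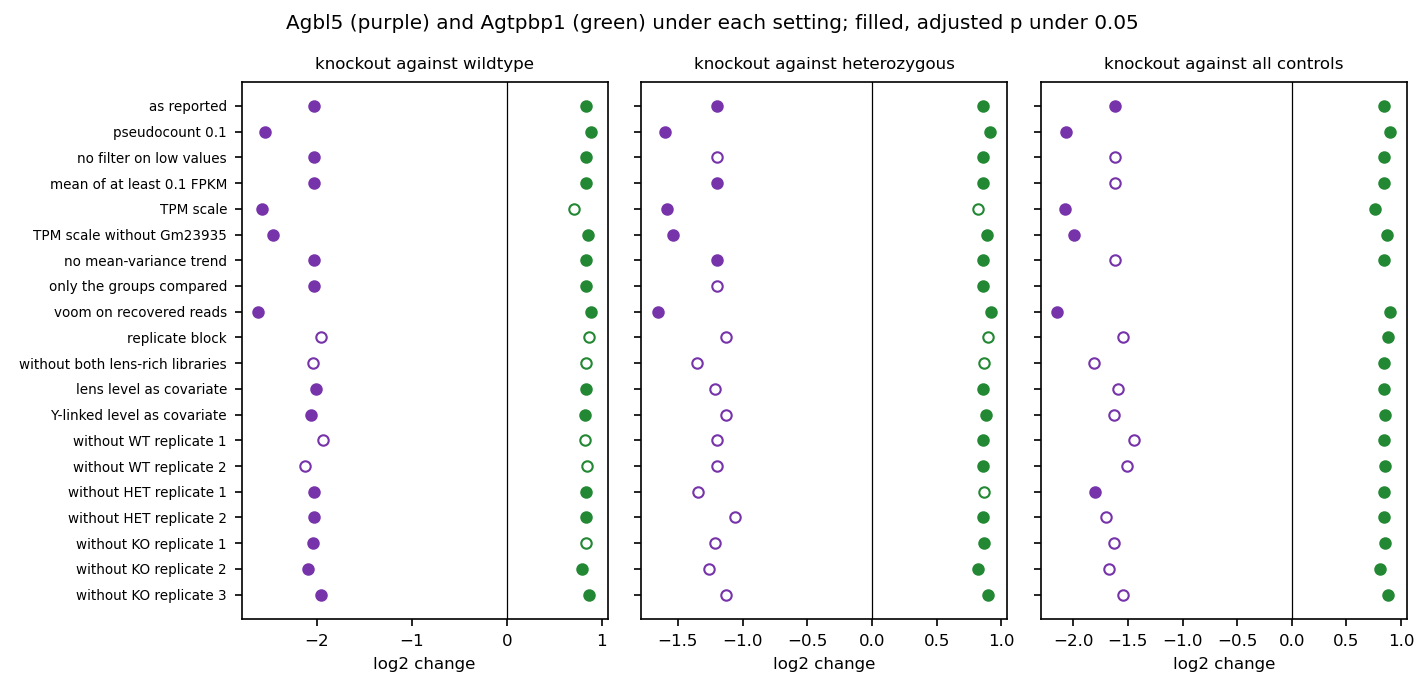
Log2 change of Agbl5 (purple) and Agtpbp1 (green) on the x axis under each processing setting on the y axis, in the 3 knockout comparisons. Filled points have an adjusted p under 0.05. The TPM, voom and pseudocount settings are on log2 scales of their own. All purple points lie below 0 and all green points above 0, and against all controls the green points are all filled (0.76 to 0.90) while 13 of the 18 purple alternatives are open.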

How the data were processed

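Poly(A)-selected RNA of 7 mouse eye libraries was made with an unstranded NEBNext Ultra kit, per the labels' protocols. The authors deposited FPKM for 54532 genes, 1 column per library. TopHat2 2.0.9, Bowtie2 2.0.6, DESeq and HTSeq, and the builds GRCm38 and mm10, are named in the submitters' processing notes; their order, settings and the annotation are not given in the sources used here. With exon lengths of GENCODE mouse release M21, 96.8% of deposited FPKM values above 0 were whole multiples of 1 read per library (tolerance 0.01), so reads were recovered; 1 read on 1 kilobase stood for 0.0663 to 0.0766 FPKM. The implied library sizes were in a fixed ratio to median-of-ratios factors, so the columns already carry that scaling.

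The 15472 genes whose mean over all libraries reached 1 FPKM were tested on log2(FPKM + 1) with limma 3.58.1 in R 4.3.3 (empirical Bayes, mean-variance trend, Benjamini-Hochberg, threshold 0.05). One model held 3 genotypes (4 residual degrees of freedom), another knockout against all controls (5). The method was tried on simulated counts, drawn with the same spread setting for all genes and without lens, sex or Gm23935 differences between libraries. That trial cannot show how the method performs under such differences. Members and lists were chosen with earlier results of these data known. Genes were named by rule: all 6 members, pathway genes that passed or had the smallest p of their list, the 5 genes most like and the 3 most opposite to Agbl5 and to Agtpbp1, and checks of tissue. Ost4 and the extra contrast of genotype steps were added after values were seen. All 6 members matched RefSeq promoter entries by symbol. Alternatives changed the pseudocount, filter, scaling, trend, samples, test (voom on recovered reads), gene lengths, block, lens and Y-linked terms, and left out each library.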

Additional observations from a re-analysis of the deposited data

How the results depend on the processing

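No change of Agbl5, Agtpbp1 or Agbl3 reversed in sign in the 4 comparisons under 19 alternatives each (18 against all controls), and Agbl3 and heterozygous against wildtype passed in none. Agbl5 passed in 15 of 19 against wildtype, 6 of 19 against heterozygous and 5 of 18 against all controls; Agtpbp1 in 13 of 19, 15 of 19 and 18 of 18. Leaving out 1 library each moved Agbl5 over -2.12 to -1.94, -1.34 to -1.06 and -1.80 to -1.45, and Agtpbp1 over 0.79 to 0.87 and 0.82 to 0.90, against wildtype, heterozygous and, for Agbl5, all controls.

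Replicate numbers in the titles mark no stated pairing. Deviations of same-numbered libraries from their group means had correlations of 0.430 and 0.271 in heterozygous and knockout. The values were 0.0919 and -0.0233 in wildtype and knockout, and -0.0176 in wildtype and heterozygous. The differently numbered heterozygous 2 and knockout 3 had 0.253, and heterozygous 1 and knockout 1 are the lens-rich libraries. In a group of 2 the deviations mirror each other, so these values are not separate checks and show no pairing by number. With the replicate block Agbl5 stood at -1.96, -1.13 and -1.54 (adjusted p = 0.0841, 0.242 and 0.260, limma) and Agtpbp1 at 0.87 and 0.90 (0.0953 and 0.128), and 3, 0 and 38 genes were called against wildtype, heterozygous and all controls (against heterozygous 1449 genes had an unadjusted p under 0.05). The block leaves 2 residual degrees of freedom with 3 genotypes, as does the set without both lens-rich libraries.

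Without those libraries Agbl5 stood at -2.04, -1.35 and -1.81 and Agtpbp1 at 0.84 and 0.86 (adjusted p = 0.0518 to 0.221), with 3, 0 and 48 genes called. The Agbl5 call against heterozygous was also lost with no filter (-1.20, 0.0609), with only the groups compared (-1.20, 0.0818), with the lens term (-1.21, 0.0537) and with the Y-linked term (-1.13, 0.0517). Against all controls it was lost with no filter (-1.61, 0.107), a filter of 0.1 FPKM (-1.61, 0.0631), no trend (-1.61, 0.0582), the lens term (-1.59, 0.0558) and the Y-linked term (-1.63, 0.0876). On the TPM scale Agtpbp1 was lost against wildtype (0.71, 0.102) and heterozygous (0.82, 0.0539); with Gm23935 left out of that scaling, added after seeing the data, it passed (0.85, 0.00818). The cause of these losses was not tested.

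Genes called numbered 50, 49, 0 and 95 against wildtype, against heterozygous, heterozygous against wildtype and against all controls. The TPM scale gave 28 and 63 against wildtype and all controls, voom 77, 77 and 151 in the knockout comparisons, the lens term 28 and the Y-linked term 33 against wildtype, only the groups compared 31 against heterozygous and 1 for heterozygous against wildtype, where no filter gave 19. With 1 library left out, the ranges were 5 to 53, 14 to 40, 0 to 3 and 45 to 90. The knockout to wildtype ratio of summed levels was 1.08, 0.965 on the TPM scale and 1.14 with single-transcript lengths, which gave 82.3% for Agtpbp1 in the knockout and 1.54 for its wildtype ratio to Agbl5. Of the 5 genes most like Agbl5 and Agtpbp1, 2 and 1 were shared without the lens-rich libraries.

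Agbl1, Agbl2 and Agbl4 were limited by depth, with at most 42 reads in a library. Heterozygous against wildtype had 2 libraries a side, and the Agbl5 difference there (-0.83) was not called.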
